A study of Homo sapiens with 17 samples.

Results

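The comparison described here asks whether newly made RNA in SNU-761 cells differed between the higher and the lower dose of intetumumab. SNU-761 is an established human liver carcinoma cell line. The 6 intetumumab libraries were chosen by their sample labels, 3 at 5 µg/ml and 3 at 1.5 µg/ml, out of 17 libraries in the series. The 3 libraries of cells given the isotype IgG1 at 5 µg/ml serve as the reference level with no intetumumab. All 9 came from wild-type SNU-761 cells labelled with thiouridine and collected 4 h after the antibody was added. The intetumumab was a biosimilar directed at ITGAV and ITGB3, and the isotype was human myeloma IgG1. As 1 line, it stands for 1 tumour's cells.

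Integrins are paired alpha and beta chains in the cell membrane that bind matrix proteins outside the cell and join them to actin and to signalling kinases inside. The alpha-v chain, ITGAV, pairs with several beta chains and binds vitronectin, fibronectin, osteopontin and the latent form of TGF-beta. In SLAM-seq, RNA made while thiouridine is present carries T>C conversions in its reads, and counting only such reads gives the output of recent transcription rather than the whole RNA pool.

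The count table lists genes by Ensembl ID and does not pair them with symbols, and the RefSeq table at hand matched 0 of its 19867 IDs. Named pathways, ITGAV itself and the markers of liver carcinoma cells were therefore not analysed here, and only the few genes that lead each comparison are shown, under their IDs. Whether a named pathway depended on dose is thus not answered.

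Few genes differed between the doses by the test. Of 9024 genes tested, edgeR's quasi-likelihood test called 1 between 5 and 1.5 µg/ml (0.0111%, adjusted p under 0.05), and it was lower at 5 µg/ml. The median log2 fold change of all genes was -0.00396, with a median size of 0.26. The 1 called gene had no counts at the higher dose, and it was lost under several other settings given with it below. A gene that did not pass is not thereby shown to be alike at both doses, so the range of differences that the libraries leave room for is given as well.

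Totals of newly made RNA counts ranged from 435343 to 783734 per library at the higher dose, from 481424 to 874304 at the lower dose, and from 751380 to 950281 with the isotype. The mean total was 653896 ± 190400 at 5 µg/ml and 703067 ± 201200 at 1.5 µg/ml (SD, n = 3 each; exact permutation p = 0.6, two-sided, where 3 against 3 cannot go below 0.1). The shallowest library of each dose held fewer counts than any isotype library. The labels do not say whether replicates were grown separately, so the p-values here rest on a spread that may be only technical.

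ENSG00000196998 was the gene that passed. It had 40, 51 and 22 counts in the 3 libraries at 1.5 µg/ml and 0 in each at 5 µg/ml, against 5, 10 and 14 with the isotype. As counts per 1e6 after TMM scaling (CPM), these were 53.8, 59.1 and 45.9 at 1.5 µg/ml and 6.84, 13.8 and 15.1 with the isotype, so all 3 groups stood apart. Set against 3 counts over the 3 libraries at 5 µg/ml (1.54 CPM), which is about what a count of 0 allows, the level at the higher dose was at least 35.3-fold lower than that at the lower dose (adjusted p = 0.0128, edgeR). By the same bound it was at least 7.93-fold lower at 5 µg/ml than with the isotype, while at 1.5 µg/ml it stood at 444% of the isotype mean (adjusted p = 0.0699 and 0.310, which did not pass). The isotype level therefore lay between the doses, and the order of the levels was not the order of the doses. With a mean count of 15.8 the gene stood at percentile 22.0 of tested genes. The call was lost without replicate 1 or 2 at 1.5 µg/ml or replicate 3 at 5 µg/ml (adjusted p = 0.0990, 0.145 and 0.0598) and without both shallowest libraries (0.101). It was also lost in limma-voom (0.820), in edgeR with the replicate number as a block (0.159) and in a fit with all 15 labelled libraries of the series (0.117). A bound of this kind covers counting error only, and copies of 1 molecule made in amplification are not independent.

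Of the other genes whose groups did not overlap, the one with the smallest p among those lower at 5 µg/ml and the 2 with the smallest p among those higher are given next. They did not pass, they were picked after their values were seen, and some genes with a smaller p than the last of them are not shown. ENSG00000204574 had 11, 23 and 24 counts at 5 µg/ml, against 64, 45 and 56 at 1.5 µg/ml, and 43, 55 and 67 with the isotype. Its level was 29.1 ± 3.23 CPM at 5 µg/ml, 85.0 ± 32.4 at 1.5 µg/ml and 69.0 ± 9.05 with the isotype (SD, n = 3 each). The log2 fold change between doses was -1.51 (95% interval -2.22 to -0.80, edgeR adjusted p = 0.778). Here the 5 µg/ml libraries stood below all 6 others, and the 1.5 µg/ml libraries overlapped the isotype.

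In the other direction, ENSG00000039650 had 6, 11 and 30 counts at 5 µg/ml and 0 in every library at 1.5 µg/ml, against 4, 9 and 9 with the isotype. That made it at least 16.7-fold higher at 5 than at 1.5 µg/ml by the 3-count bound, with an adjusted p of 0.625 by edgeR. DESeq2 gave it an adjusted p of 0.0556, and 0.0330 when run on the genes edgeR tested, where it was 1 of 4 genes called. The library of cells that received no thiouridine, which has only 4553 counts in all, held 9 counts of this gene, as many as the highest isotype library. That library is 1, without a replicate and not scaled for the reads sequenced, and the part of background conversions in this gene's values was not tested. An alternative fit without background genes, picked by that library, dropped this gene.

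ENSG00000143158 had 19, 37 and 44 counts at 5 µg/ml, against 8, 13 and 13 at 1.5 µg/ml, with 28, 27 and 30 with the isotype. It stood at 50.1 ± 6.29 CPM, 17.6 ± 8.49 and 36.0 ± 3.15 in that order (SD, n = 3 each). The log2 fold change between doses was 1.56 (95% interval 0.77 to 2.35, adjusted p = 0.778). The 1.5 µg/ml libraries were the low ones for this gene, below all isotype libraries, while those at 5 µg/ml were above them.

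**Figure D1:**
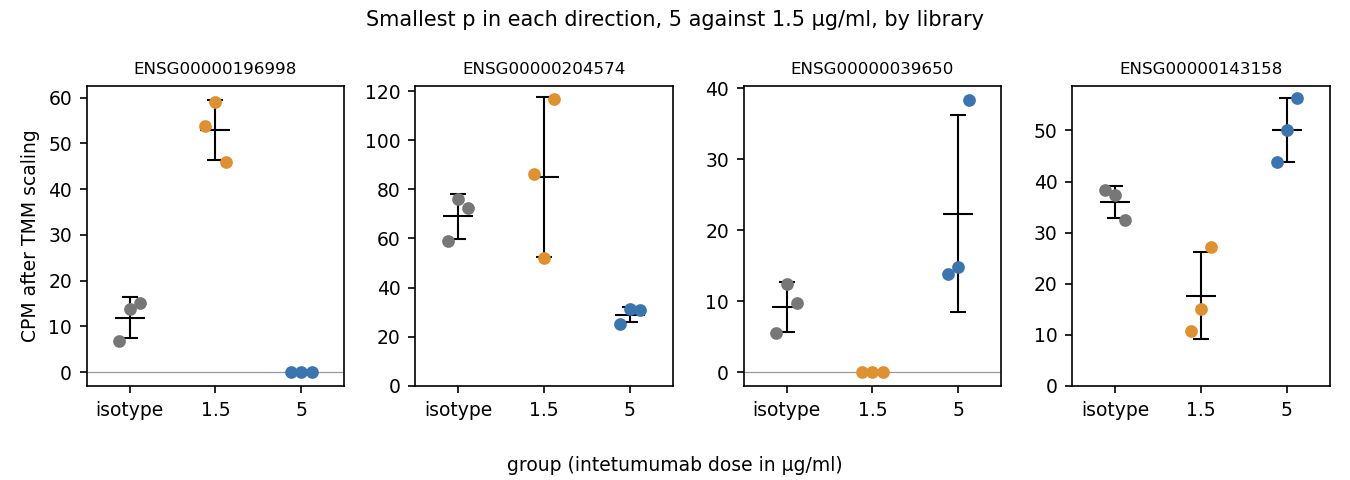
Level of newly made RNA in CPM (y axis, linear) by group (x axis) for the 2 genes with the smallest p in each direction between 5 and 1.5 µg/ml, among genes whose dose groups do not overlap; points are libraries, and the bar is the mean ± SD of 3. The doses do not overlap in any panel, by the choice of genes, and the isotype mean lies between the dose means in all 4.

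Over all genes, small p-values were only a little more frequent than an even spread would give. At an unadjusted p under 0.05, 243 genes (2.69%) were higher and 266 (2.95%) lower at 5 µg/ml, 5.64% in all, where 451 genes would be counted if p-values were spread evenly. Groups did not overlap in 971 genes (10.8%), 489 of them higher and 482 lower at 5 µg/ml. With 3 libraries against 3, a random order separates the groups in this way with a probability of 0.1. The share was thus close to that of a random order. Fitted log2 fold changes beyond 1 in either direction were found in 461 genes, of which 322 were in the lowest of 4 equal bins of genes by mean count and 6 in the highest. In the plot of fold change against mean count, the spread accordingly narrows from left to right. Going up through these bins, 111, 101, 133 and 164 genes had an unadjusted p under 0.05. An even spread would give 113 in each, so the excess lay in the bins with more counts.

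**Figure D2:**
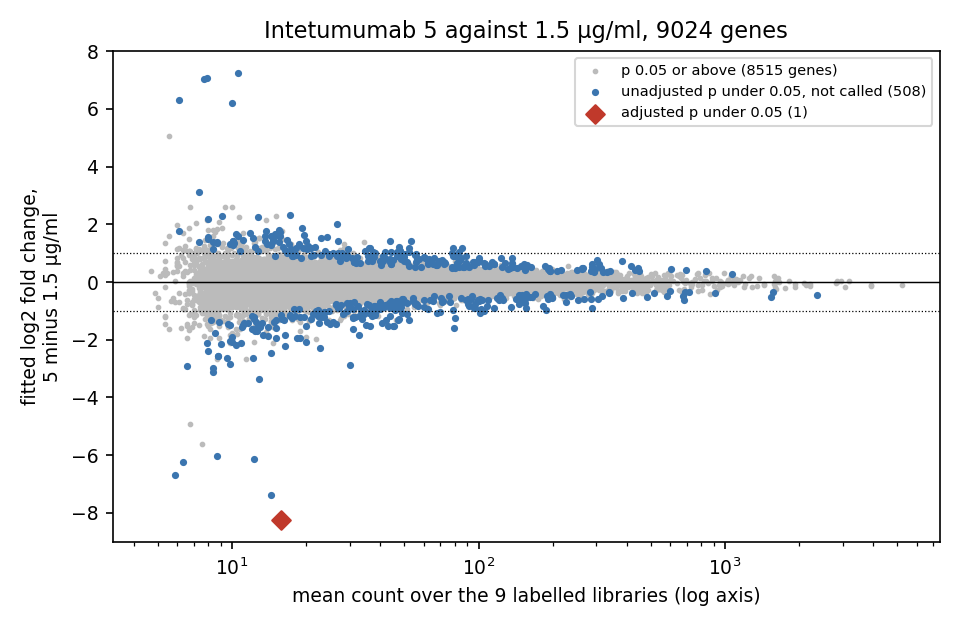
Fitted log2 fold change between 5 and 1.5 µg/ml (y axis) against mean count over the 9 labelled libraries (x axis, log scale), 1 point per gene, with dotted lines at a 2-fold difference. The 1 called gene lies at low counts and the 508 other genes at an unadjusted p under 0.05 spread over both directions; the points beyond about 4 on the y axis include genes with no counts at 1 dose, whose fitted values are no measure of size.

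The 95% intervals show how large a difference between doses these libraries leave room for, gene by gene and without adjustment for the number of genes. In 1265 tested genes, 504 of them with an interval inside 2-fold, all counts shared a common divisor above 1. Their intervals may be too narrow. With counts divided by that divisor, 4050 of 8624 genes tested had intervals inside 2-fold. For 4045 of 9024 genes (44.8%), the 95% interval of the log2 fold change lay wholly between -1 and 1, so that a 2-fold difference in either direction lay outside it. Going up through the bins, this held for 2.08%, 28.3%, 60.2% and 88.7% of 2256 genes each. The median half-width of the interval was 2.44-fold in the lowest bin and 1.39-fold in the highest. Of 903 genes that made up the top 10% by mean count (163 counts or more), 872 (96.6%) had intervals inside 2-fold, and 0 were called by edgeR. An unadjusted p under 0.05 was found for 71 of them (34 higher and 37 lower), where an even spread would give 45. For the most abundant transcripts, most differences of 2-fold or more between the doses are thus outside the intervals, whereas for most of the least abundant ones the intervals leave room for a difference of that size.

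**Figure D3:**
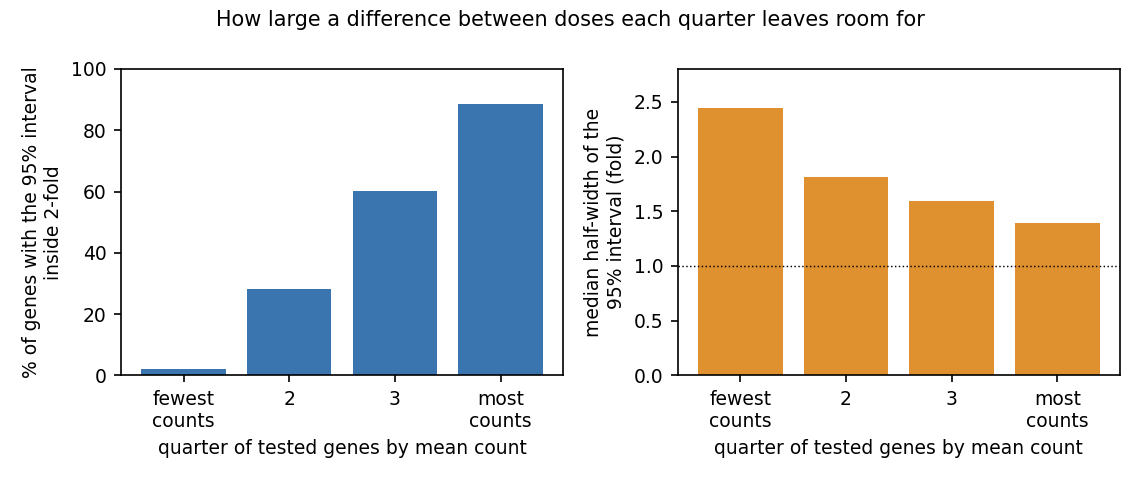
Left, the share of genes (y axis, %) whose 95% interval of the difference between doses lies inside 2-fold, and right, the median half-width of that interval (y axis, fold, with 1 meaning no width), by 4 equal bins of tested genes ordered by mean count (x axis). The share climbs from 2.08% to 88.7% as the half-width narrows from 2.44- to 1.39-fold.

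Libraries of one dose were about as alike as libraries of different doses. Spearman correlations over tested genes ran from 0.868 to 0.880 among the 5 µg/ml libraries, from 0.862 to 0.899 among the 1.5 µg/ml libraries and from 0.856 to 0.905 over the 9 pairs of different doses. The mean within doses exceeded the mean between doses by 0.000797 (exact permutation test, one-sided p = 0.3, smallest possible 0.1). The isotype libraries, at 0.901 to 0.908 among themselves, were also the deepest on average, with 818268 ± 114300 counts (SD, n = 3), and the part of depth in these correlations was not tested.

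The genes that set intetumumab apart from the isotype were examined next for a difference between the doses. In the same fit, 8 genes were called at 5 µg/ml against the isotype (0.0887%), of which 2 were higher (0.0222%) and 6 lower (0.0665%), and 0 at 1.5 µg/ml (0%, with 494 genes at an unadjusted p under 0.05). For all 8 the 1.5 µg/ml mean lay between the isotype and the 5 µg/ml mean. These genes were chosen on the 5 µg/ml libraries and on the isotype libraries that both doses share, which favours this order, so their values are a description. The median log2 fold change of the 6 falls was -0.93 at 5 µg/ml and -0.64 at 1.5 µg/ml, and their median difference between doses was -0.25 (range -0.48 to -0.11, against -0.00 over all genes). The 95% intervals of that difference lay inside 2-fold for all 6. None of the 8 genes was called between the doses in the main fit. The calls against the isotype depend on the test and on single libraries. Their number also changed when each gene's counts were divided by their common divisor, with 6 of 8624 genes called by edgeR at 5 µg/ml. DESeq2, run on 13492 genes without edgeR's filter, gave 103 genes at 5 µg/ml and 45 at 1.5 µg/ml. On the 9024 genes edgeR tested, it gave 100 and 35. By edgeR no gene was called at 5 µg/ml without any 1 isotype library, without replicate 1 or 2 at 5 µg/ml or without replicate 2 at 1.5 µg/ml (647 to 1106 genes at an unadjusted p under 0.05 in these fits), and 3 were called without replicate 3 at 5 µg/ml. With the replicate number as a block, edgeR called 1 gene at 5 µg/ml.

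ENSG00000077063 had the larger of the 2 rises called at 5 µg/ml. Its level was 4.10, 11.1 and 8.64 CPM with the isotype, 45.7, 44.0 and 31.3 at 1.5 µg/ml, then 50.7, 46.0 and 64.0 at 5 µg/ml. All 6 intetumumab libraries were above all isotype libraries, and the doses lay side by side, the highest at 1.5 µg/ml just under the lowest at 5 µg/ml. The log2 fold change was 2.73 at 5 µg/ml (edgeR adjusted p = 0.0231) and 2.33 at 1.5 µg/ml (adjusted p = 0.171), with 0.40 between doses (95% interval -0.34 to 1.13).

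ENSG00000073737 was the other rise. It stood at 32.8, 24.9 and 38.9 CPM with the isotype, 72.6, 55.6 and 87.7 at 1.5 µg/ml, then 124, 97.4 and 131 at 5 µg/ml, so the 3 groups formed 3 separate steps. The difference between doses was 0.72 on the log2 scale (95% interval 0.14 to 1.29, edgeR adjusted p = 0.846, which did not pass). All its counts were multiples of 6, so fewer reads may lie behind them than the counts show, and the interval would then be too narrow.

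Among the falls, ENSG00000142949 was at 867, 904 and 974 CPM with the isotype, 627, 557 and 394 at 1.5 µg/ml, then 371, 458 and 394 at 5 µg/ml. Both doses lay below all isotype libraries and overlapped each other. The log2 fold change against the isotype was -1.16 at 5 µg/ml (edgeR adjusted p = 0.0231) and -0.79 at 1.5 µg/ml (adjusted p = 0.310), with -0.37 between doses (95% interval -0.74 to 0.00).

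ENSG00000167767, with even counts in every library, was at 372, 378 and 339 CPM with the isotype, 199, 176 and 192 at 1.5 µg/ml, then 161, 184 and 166 at 5 µg/ml. The lower dose already stood at 52.1% of the isotype mean and the higher dose at 47.0%. The difference between doses was -0.14 on the log2 scale (95% interval -0.50 to 0.21), and the libraries of the doses overlapped.

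**Figure D4:**
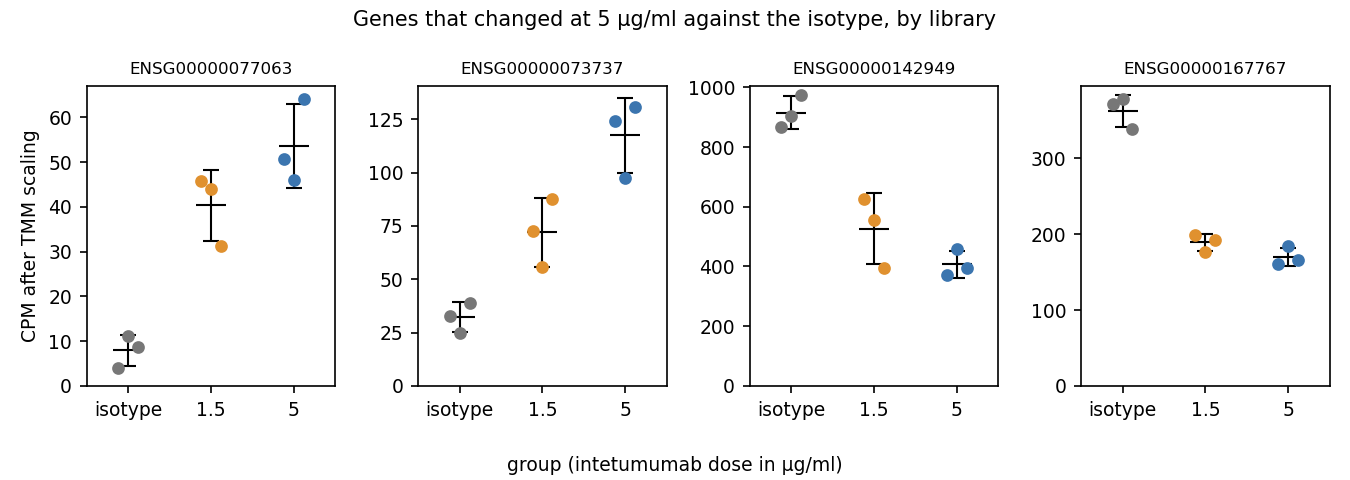
Level of newly made RNA in CPM (y axis, linear, from 0) by group (x axis) for the 2 rises and the 2 largest falls called at 5 µg/ml against the isotype; points are libraries, and the bar is the mean ± SD of 3. Libraries of both doses stand apart from the isotype in each panel, and the dose groups overlap for ENSG00000142949 and ENSG00000167767.

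Of the 4 further falls, the lowest was at percentile 98.95 when tested genes were ranked by mean count. One of the 4, at 617, 730 and 615 CPM at 5 µg/ml, 938, 951 and 848 at 1.5 µg/ml and 1105, 1112 and 1334 with the isotype, had 3 groups that did not overlap, as did the next gene described. Its difference between doses was the largest of the 6 falls, at -0.48 (95% interval -0.76 to -0.20, edgeR adjusted p = 0.778, which did not pass). DESeq2 gave this gene an adjusted p of 0.225, and 0.267 when run on the genes edgeR tested. There, with the filter of DESeq2 tuned to 0.1, the adjusted p was 0.0474 and the gene was 1 of 6 called. The most highly counted of the 8 went from 6625 ± 274 CPM with the isotype to 5025 ± 190 at 1.5 µg/ml and 4644 ± 181 at 5 µg/ml (SD, n = 3 each), with -0.11 between doses (95% interval -0.28 to 0.05). For this gene, most of the distance from the isotype was thus present at the lower dose. Another of the 4 was at 3016 CPM with the isotype, 1930 at 1.5 µg/ml and 1511 at 5 µg/ml (means). Its difference between doses was -0.36 (95% interval -0.67 to -0.04, edgeR adjusted p = 0.846). The last of the 4 had -0.11 between doses (95% interval -0.35 to 0.14). In both, the libraries of the doses overlapped.

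**Figure D5:**
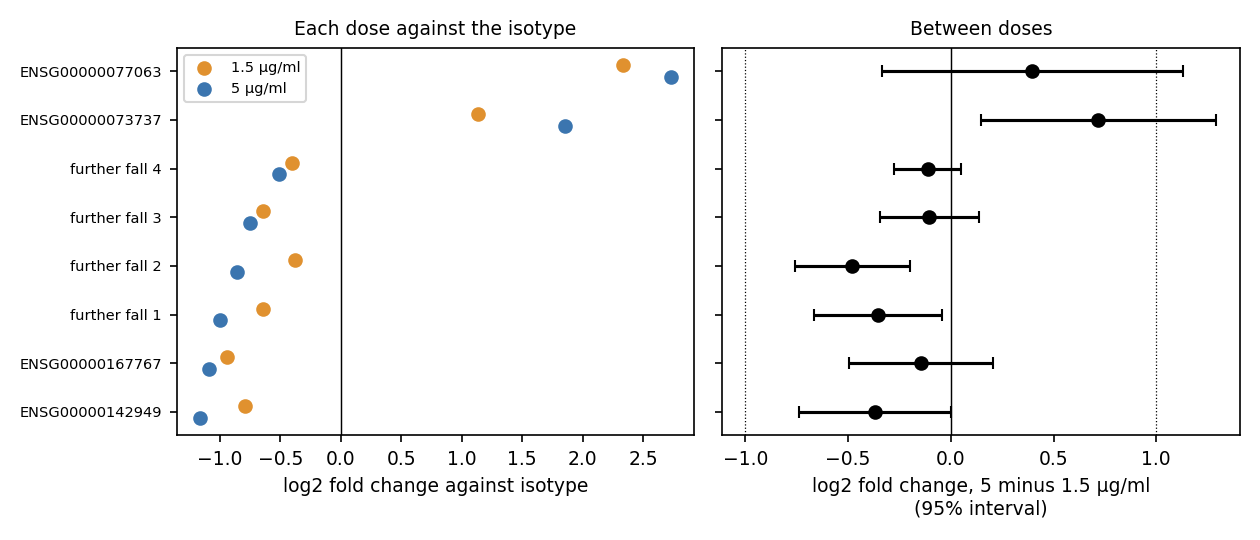
Left, log2 fold change of each dose against the shared isotype libraries (x axis) for the 8 genes called at 5 µg/ml, 1 per line; right, the log2 fold change between 5 and 1.5 µg/ml (x axis) with its 95% interval and dotted lines at 2-fold. At 5 µg/ml each gene lies farther from the isotype than at 1.5 µg/ml, and the differences between doses run from -0.48 to 0.72, with the intervals of the 6 falls all inside 2-fold.

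The order of the 3 group means was then counted over all genes, a count chosen after the data were seen. The 1.5 µg/ml mean lay in the middle for 39.8% of 9024 genes, the isotype mean for 31.7% and the 5 µg/ml mean for 28.5%. In the top 10% of genes by mean count the shares were 48.3%, 26.6% and 25.1%. For these top genes the share with 1.5 µg/ml in the middle exceeded that with 5 µg/ml in the middle by 23.1 percentage points, which did not pass (exact permutation p = 0.3, two-sided, smallest possible 0.1). The share fell to 42.2%, 40.8% and 39.0% without replicate 1, 2 or 3 at 1.5 µg/ml. Genes whose doses differed at an unadjusted p under 0.05 showed another order, with the isotype in the middle for 345 of 509 (67.8%), the 1.5 µg/ml mean for 125 (24.6%) and the 5 µg/ml mean for 39 (7.66%). Among the 71 such genes in the top 10% by mean count, the isotype was in the middle for 50.7% and the 1.5 µg/ml mean for 47.9%. Choosing genes by the difference between the doses places these 2 means at the ends more often. For most of the 509, as for ENSG00000196998, the doses lay on opposite sides of the isotype.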

How the data were processed

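The authors deposited 1 table of raw read counts for de novo transcripts, which the series design text credits to SLAM DUNK. Per the labels' protocols, QuantSeq 3′ mRNA libraries were prepared, and GRCh38 is named in the submitters' processing notes. Pipeline settings and annotation were not given in the sources used here. All 17 columns were matched to samples by name.

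The 9 labelled libraries of the intetumumab experiment were fitted together with edgeR 4.0.16 in R 4.3.3 (filterByExpr with minimum count 10, TMM scaling, quasi-likelihood F-test, two-sided, Benjamini-Hochberg adjustment over 9024 genes). Errors and 95% intervals come from the fitted weights and the quasi-likelihood dispersion. A bound for a group with no counts used 3 counts over the group. Library means were compared with exact permutation tests. The fit was tested on simulated counts. On raw counts, all 9 replicate pairs differed beyond counting noise (chi-square per degree of freedom 3.66 to 5.69), and each library was counted as 1 sample. Genes whose counts share a common divisor were left in, and reads counted more than once would raise these chi-square values.

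The comparison and the lists were chosen with earlier results of these data known. The rule for named genes took all called genes. Its further parts, and the 33 gene lists, needed gene names and were not used. Alternatives covered scaling, filters, tools (DESeq2 1.42.0, limma 3.58.1), left-out libraries, a replicate block, common divisors and background genes.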

Additional observations from a re-analysis of the deposited data

Results flagged for a closer look

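ENSG00000039650 had 9 counts in the unlabelled library of the intetumumab experiment, against a mean of 7.33 counts in the isotype libraries. That library was part of no comparison. It served only to pick the background genes left out of an alternative fit, which dropped this gene. ENSG00000039650 had 0 counts in all 3 libraries at 1.5 µg/ml. The unlabelled library has no replicate, and raw counts were not scaled for the number of reads sequenced.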

How the results depend on the processing

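The 1 gene called between doses was also the count in 14 of 24 alternatives, other scalings, filters and planned DESeq2 among them. No gene was called with all 15 labelled libraries, limma-voom or without both shallowest libraries (0 each, with 547, 525 and 611 genes at an unadjusted p under 0.05). Leaving out 1 library gave 0 to 2 calls, and 453, 472 and 481 genes at that level where it gave 0. DESeq2 on the genes edgeR tested, added after the data were seen, called 4 genes (1 higher and 3 lower), or 6 (2 higher and 4 lower) with its filter tuned to 0.1, which left ENSG00000196998 without an adjusted p. The labels do not say whether replicate numbers pair the samples, and the values do not settle it. Same-numbered libraries of different doses correlated at 0.0482 to 0.188, with 1 of 3 pairs above 0.1. Of 6 libraries, 4 correlated best with their own number. With the replicate block, edgeR gave 0 calls and 515 genes at an unadjusted p under 0.05, with 3963 intervals inside 2-fold. That fit called 1 gene at 5 µg/ml against the isotype. The number of intervals inside 2-fold ran from 2857 to 4136, within 1.5 times the main count in all 24 alternatives. Genes whose groups did not overlap numbered 627 at minimum count 30, with fewer genes tested, 998 to 2213 without 1 library and 3284 without both shallowest ones, where fewer samples overlap less. The share of top genes with 1.5 µg/ml in the middle was 39.0% to 49.9% without 1 library and 41.4% without both shallowest ones; the cause was not tested. Differences between doses kept their direction for all 12 genes examined wherever they were tested. Medians of gene lists were not run for want of gene names.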

Other observations

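Genes with no counts at 1 dose were found in both directions. At 5 µg/ml, 665 genes had 0 counts over 3 libraries and some at 1.5 µg/ml, and 17 of them had at least 20 counts there, the highest 113 and the next 78. At 1.5 µg/ml, 609 genes had 0 counts and some at 5 µg/ml, 12 of them at least 20, with 57 and 47 as the highest. The pooled depths were 1961688 counts at 5 µg/ml and 2109201 at 1.5 µg/ml.

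The share of all counts in each library's 10 most counted genes was 4.32% ± 0.201 at 5 µg/ml, 4.46% ± 0.110 at 1.5 µg/ml and 4.97% ± 0.122 with the isotype (SD, n = 3 each). All 6 intetumumab libraries, at 4.11% to 4.58%, lay below the 3 isotype libraries, at 4.86% to 5.10%. The doses overlapped (exact permutation p = 0.4, two-sided, smallest possible 0.1).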
